A study of Mus musculus with 20 samples.

Results

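10 genes that glucocorticoids are known to regulate were followed in the liver of obese db/db mice given benzbromarone (BBR), with or without knockdown of PPARγ. They were the receptor gene Nr3c1 and 9 genes that the receptor induces, namely Fkbp5, Tsc22d3, Klf9, Sgk1, Zbtb16, Mt1, Mt2, Tat and Dusp1. Members were the rows of the expression tables that carry these symbols, 10 of the 22298 genes listed, and all 10 were among the 12342 genes abundant enough to be tested. The 4 groups held 5 male Lepr db/db mice each, and each of the 20 libraries was 1 liver. All mice carried the db/db mutation of the leptin receptor and an adeno-associated virus (AAV8) injected through the tail vein at 5 weeks of age. In the Vec groups the virus carried a non-targeting shRNA, and in the shRNA groups it carried a 4-in-1 shRNA against Pparg. Within each, mice received by gavage either the vehicle CMC-Na (Vec and shRNA) or BBR, a uricosuric drug, at 25 mg/kg once daily for 4 weeks (Vec+BBR and shRNA+BBR), and liver was taken after a 6 h fast. The promoter that drives the shRNA and the hour of collection are not given in the sources used here. No lean mice, no measurement of corticosterone and no mouse without its adrenal glands or receptor were among the samples analysed here, so the values are levels of mRNA, not of hormone action.

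Glucocorticoids such as corticosterone enter hepatocytes and bind the glucocorticoid receptor, which is held in the cytoplasm by a complex of HSP90 and co-chaperones. The bound receptor moves to the nucleus and raises transcription of genes near glucocorticoid response elements, which are inverted repeats read by a receptor dimer. In liver this programme supports gluconeogenesis and the breakdown of amino acids during fasting, and the enzyme 11β-HSD1 regenerates active hormone inside the cell. db/db mice are known for raised circulating corticosterone.

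Total counts ran from 17432904 to 25024099 per library, and the lowest count of any of the 10 genes in any library was 51, for Zbtb16. The targeted gene Pparg ranged from 16.4 to 35.9 CPM (counts scaled to library size) in Vec and from 28.0 to 38.3 CPM in Vec+BBR, against 3.24 to 7.31 CPM in shRNA and 7.19 to 21.8 CPM in shRNA+BBR. Every shRNA mouse lay below every Vec mouse, while shRNA+BBR overlapped Vec and reached above its median of 20.05 CPM. Levels below are CPM scaled with TMM factors, which correct for differences in library composition, and fold changes are log2 ratios from edgeR's quasi-likelihood fit with their standard errors (SE) and Benjamini-Hochberg adjusted p over all 12342 genes. A gene was called at an adjusted p under 0.05. In shRNA mice BBR raised Pparg by 1.28 on the log2 scale (SE 0.28, adjusted p = 0.00773, edgeR). Pparg in shRNA+BBR stayed below Vec+BBR (log2 fold change -1.20, SE 0.26, adjusted p = 0.00843, edgeR). The 6 hepatocyte markers Alb, Apoa1, Ttr, Cyp2e1, Cps1 and Apob summed to between 88810 and 150900 CPM in every library, so the defining markers of the labelled tissue were abundant. The summed markers of other cells were lower, at 119 to 300 CPM for macrophages, 128.5 to 280 CPM for stellate cells and 24.0 to 96.6 CPM for cholangiocytes. Fewer cells of a type and less RNA per cell cannot be told apart in bulk tissue.

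The 250 bases before the start of 4 of the genes are shown as searched for motifs of glucocorticoid and metal response. They are taken from RefSeq on GRCm38.p6, 5′ to 3′ on the plus strand, and capitals mark matches to the core of a glucocorticoid response element (ACANNNTGT) or to a metal response element (TGCACNC or TGCGCNC), searched on both strands.
Mt2, chr8:94172368-94172617: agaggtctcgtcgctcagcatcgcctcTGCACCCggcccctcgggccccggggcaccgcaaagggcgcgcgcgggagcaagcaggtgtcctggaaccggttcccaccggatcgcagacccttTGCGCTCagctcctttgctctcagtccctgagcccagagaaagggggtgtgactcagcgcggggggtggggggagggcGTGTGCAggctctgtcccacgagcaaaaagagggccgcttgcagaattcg
Mt1, chr8:94178839-94179088: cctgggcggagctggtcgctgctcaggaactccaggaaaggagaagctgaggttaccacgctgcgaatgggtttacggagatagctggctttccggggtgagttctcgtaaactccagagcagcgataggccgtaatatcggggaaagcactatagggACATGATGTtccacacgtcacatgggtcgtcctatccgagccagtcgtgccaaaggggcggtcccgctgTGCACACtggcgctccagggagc
Tat, chr8:109990186-109990435: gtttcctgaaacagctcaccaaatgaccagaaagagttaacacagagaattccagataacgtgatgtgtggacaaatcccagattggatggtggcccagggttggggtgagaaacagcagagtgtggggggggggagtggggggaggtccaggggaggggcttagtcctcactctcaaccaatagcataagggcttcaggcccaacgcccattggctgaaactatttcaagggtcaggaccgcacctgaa
Sgk1, chr10:21993640-21993889: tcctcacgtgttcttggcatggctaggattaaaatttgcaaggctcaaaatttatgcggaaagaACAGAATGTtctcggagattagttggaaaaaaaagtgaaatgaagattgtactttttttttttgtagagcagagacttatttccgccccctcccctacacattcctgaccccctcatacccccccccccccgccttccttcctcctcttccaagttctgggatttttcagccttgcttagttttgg
In the Mt2 window there were 3 metal response element matches, starting at -223, -128 and -50 from the start, and no glucocorticoid core. The Mt1 window held 1 glucocorticoid core at -92 and 1 metal match at -23. The glucocorticoid core occurred in 5.84% of 32851 mouse windows of this length and the metal motif in 21.4%, with 3 or more metal matches in 1.26%. The Tat window held neither. The Sgk1 window is 1 of 6 for that gene and holds a core at -186, and a second window held a core at -127. Windows of Fkbp5, Tsc22d3, Klf9 and Dusp1 held no glucocorticoid core, and no window was used for Zbtb16 or Nr3c1. A match is a description of the letters and not a site of binding. Elements outside these 250 bases were not searched for, so a window without a match does not mean a gene without elements. Starts are those of RefSeq, and in GENCODE Mt2 starts at 94172664 and Mt1 at 94179082.

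Levels between genes were compared per transcript length, in FPKM. The metallothioneins Mt1 and Mt2, small proteins that bind zinc and copper, were the most abundant, with medians over the 20 livers of 1093 and 625 FPKM. Tat, which encodes tyrosine aminotransferase, the first enzyme of tyrosine breakdown and a classical glucocorticoid target in liver, followed at 453 FPKM. The others were far lower, at 61.8 FPKM for Tsc22d3, 26.9 FPKM for Fkbp5, 19.4 FPKM for Dusp1, 8.08 FPKM for Sgk1, 5.27 FPKM for Klf9 and 5.17 FPKM for Nr3c1, and lowest for Zbtb16 at 2.81 FPKM.

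**Figure D1:**
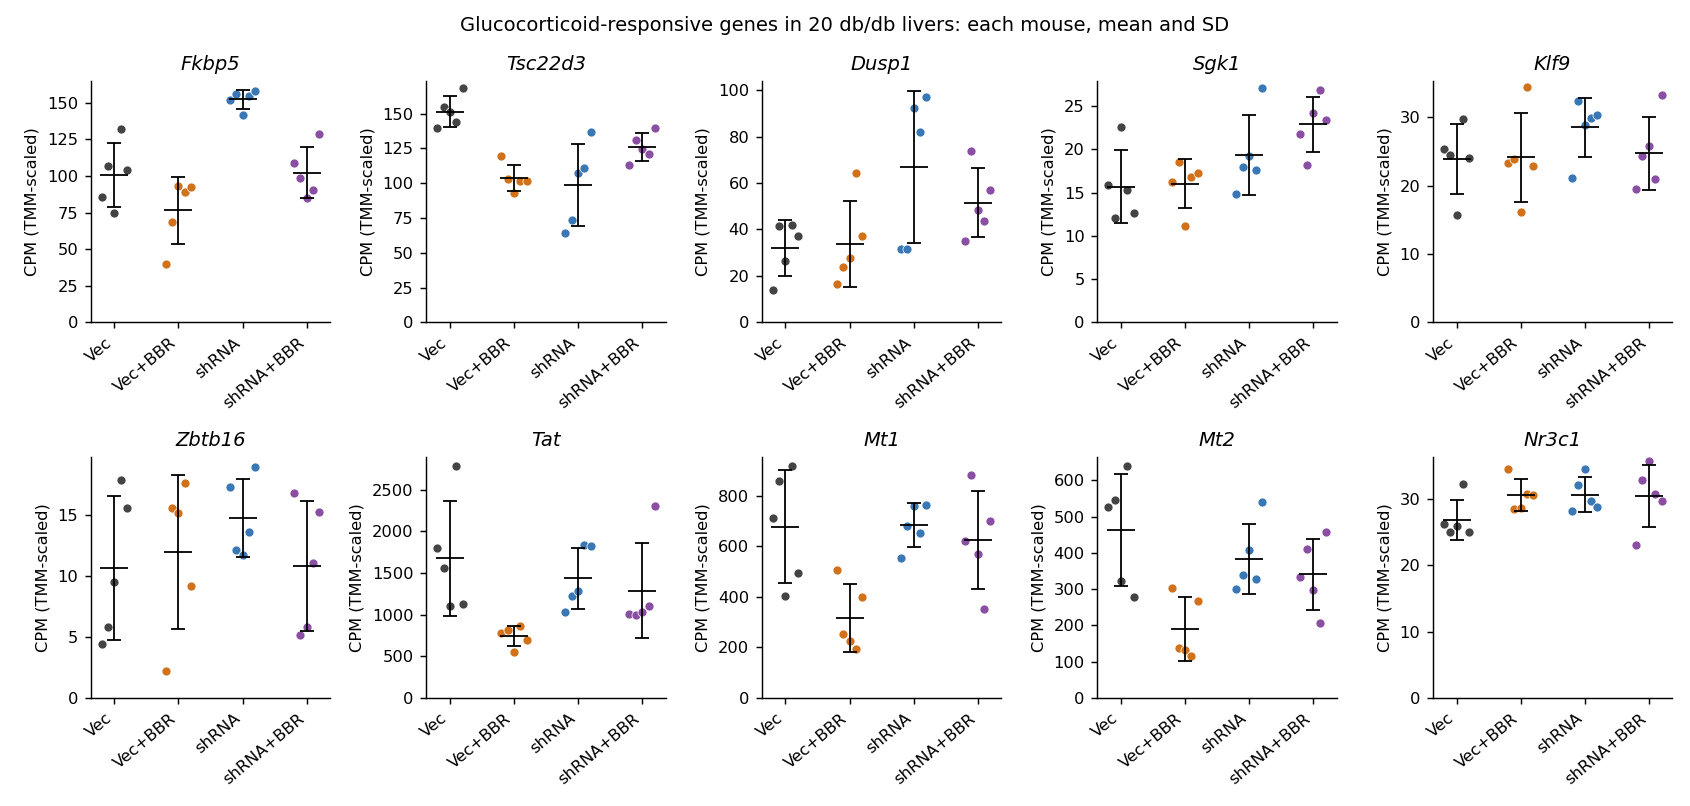
Each panel plots 1 gene in TMM-scaled CPM on a linear axis from 0, with a point for each of 5 mice in Vec, Vec+BBR, shRNA and shRNA+BBR, and with the mean and SD as a bar. In Vec+BBR all 5 mice lay below all 5 Vec mice for Tat and Tsc22d3, and in shRNA all 5 mice lay above every Vec mouse for Fkbp5.

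The first comparison asked what BBR did to these genes in mice with PPARγ intact. BBR lowered 4 of the 10 genes in Vec mice and raised none: Tat, Mt2, Mt1 and Tsc22d3. Over all genes tested, 15.5% were called in this comparison, 936 higher and 972 lower. The median log2 fold change of the 10 genes was -0.19, against -0.005 over all genes. The groups did not overlap for 2 of the 10 genes, and for 8.94% of all genes.

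Tat gave 1797, 1563, 1102, 2784 and 1129 CPM in Vec replicates 1 to 5, and 780, 811, 552, 862 and 695 CPM in Vec+BBR. The highest BBR-treated liver was below the lowest vehicle-treated liver, while the Vec mice differed among themselves by more than the Vec+BBR mice did. This was a log2 fold change of -1.18 (SE 0.26, adjusted p = 0.00498, edgeR), from a mean of 1675 to 740 CPM. Vec replicate 4 had the highest Tat of all 20 livers, and without it the value was -0.92 (adjusted p = 0.0173, edgeR).

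Mt1 gave 714, 861, 402.3, 918 and 496 CPM in Vec and 508, 255, 225, 193 and 401.8 CPM in Vec+BBR. Of the BBR-treated livers, 4 lay below every Vec liver, replicate 5 only just, and replicate 1 reached into the Vec range. Mt1 changed by -1.10 (SE 0.27, adjusted p = 0.00848, edgeR). Its neighbour Mt2, which ends 5514 bases before Mt1 begins on chromosome 8, gave 526, 545, 322, 638 and 279 CPM in Vec and 303.5, 137, 132, 114 and 266.5 CPM in Vec+BBR. It fell by 1.28 on the log2 scale (SE 0.29, adjusted p = 0.00518, edgeR), with Vec+BBR replicates 2, 3 and 4 lowest for both genes. The counts of both genes were whole numbers in all libraries, so no fractional sharing of reads between these similar genes was visible, but reads of an annotated antisense gene that overlaps Mt2 cannot be told apart from its own without strand information.

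Tsc22d3, which encodes GILZ, a leucine zipper protein that carries anti-inflammatory effects of glucocorticoids, gave 139, 155, 151, 144 and 168 CPM in Vec. In Vec+BBR it gave 119, 103, 93.2, 102 and 101 CPM, below every Vec liver. Its log2 fold change was -0.55 (SE 0.14, adjusted p = 0.0141, edgeR), the smallest of the 4 but with the tightest groups. These 4 calls were kept in all 17 alternative settings tried.

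The other 6 genes did not pass. Fkbp5, which encodes the co-chaperone FKBP51 that lowers the receptor's affinity for hormone and so closes a feedback loop, ranged from 74.4 to 132 CPM in Vec and from 39.7 to 93.2 CPM in Vec+BBR (log2 fold change -0.39, SE 0.18, adjusted p = 0.149, edgeR). Nr3c1, the receptor itself, differed by 0.19 (95% interval -0.03 to 0.40, adjusted p = 0.232, edgeR). The estimates for Klf9 and Sgk1 were near 0, at 0.02 (95% interval -0.36 to 0.40) and 0.03 (-0.34 to 0.39). Intervals for Dusp1 (-0.69 to 0.85) and Zbtb16 (-0.74 to 1.06) were wide, so changes of that size were not detectable with 5 mice a group.

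The second comparison asked what BBR did in mice with PPARγ knocked down. BBR lowered 1 of the 10 genes there, Fkbp5, where 15.7% of all genes were called. Fkbp5 gave 152, 156, 141.5, 155 and 158 CPM in shRNA and 109, 98.7, 85.0, 90.3 and 129 CPM in shRNA+BBR. The groups did not overlap, and the shRNA mice were the tightest group of any for this gene. In this comparison groups did not overlap for 1 of the 10 genes, and for 11.4% of all genes. The log2 fold change was -0.58 (SE 0.18, adjusted p = 0.0380, edgeR). The call was lost when any 1 of shRNA replicates 1, 2, 4 and 5 or shRNA+BBR replicates 2, 3 and 4 was left out, with log2 fold changes between -0.58 and -0.51 and adjusted p between 0.0641 and 0.109 (edgeR).

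The 4 genes that fell with BBR in Vec mice did not pass in shRNA mice. Tat was -0.16 (95% interval -0.69 to 0.38), Mt1 -0.13 (-0.67 to 0.42), Mt2 -0.17 (-0.75 to 0.42) and Tsc22d3 0.35 (0.05 to 0.65, adjusted p = 0.0942, edgeR). Tsc22d3 gave 64.3, 73.9, 108, 111 and 137 CPM in shRNA and 113, 131, 125, 121 and 140 CPM in shRNA+BBR. The shRNA group spread over a wider range than any other group for this gene, and shRNA replicate 5 reached into the shRNA+BBR range. Without that mouse the value was 0.50 (adjusted p = 0.0267, edgeR).

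Whether the effect of BBR differed between the vectors was tested as an interaction. None of the 10 genes passed, where 0.146% of all genes did (18 genes). An unadjusted p under 0.05 was found for 4 of the 10, and for 2281 of all 12342 genes. These 4 were the genes that fell in Vec mice. The same Vec and Vec+BBR mice enter the interaction, so this match is partly built in and is not independent support. The difference between the 2 BBR effects was 0.90 for Tsc22d3 (SE 0.20, adjusted p = 0.0649, edgeR), 1.11 for Mt2 (SE 0.40, adjusted p = 0.160, edgeR), 1.02 for Tat (SE 0.37, adjusted p = 0.160, edgeR) and 0.97 for Mt1 (SE 0.37, adjusted p = 0.183, edgeR). DESeq2 called 1 of the 10, Tsc22d3, with an adjusted p of 0.00507, but also called 330 of all genes against 18 in edgeR. With edgeR, Tsc22d3 also passed without Vec replicate 4 (0.92, adjusted p = 0.0427), Vec+BBR replicate 1 (0.97, adjusted p = 0.0435) or shRNA replicate 5 (1.04, adjusted p = 0.0238).

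**Figure D2:**
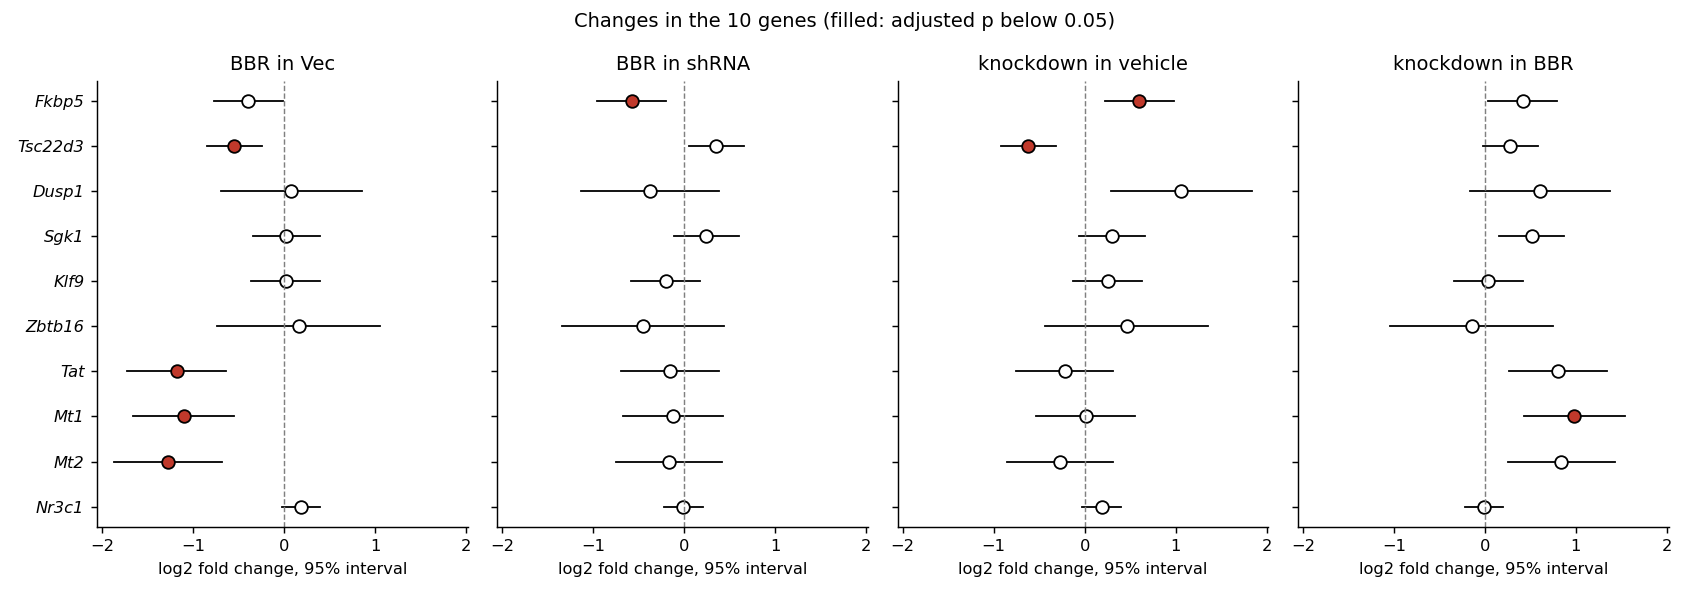
The log2 fold change of each of the 10 genes is plotted with its 95% interval for BBR in Vec mice, BBR in shRNA mice, knockdown under vehicle and knockdown under BBR, and filled points passed an adjusted p of 0.05. Tat, Mt1, Mt2 and Tsc22d3 are filled and left of 0 only in the first panel among the BBR comparisons, while Fkbp5 is filled in the second and the third.

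The third comparison asked what knockdown of PPARγ did without BBR. Fkbp5 rose and Tsc22d3 fell, 2 of the 10 genes, where 13.2% of all genes were called. Fkbp5 gave 85.6, 107, 74.4, 132 and 104 CPM in Vec, all below the shRNA values given above, and rose by 0.60 on the log2 scale (SE 0.18, adjusted p = 0.0339, edgeR). That call was lost when any 1 of Vec replicates 1, 2 and 3 or shRNA replicates 1, 2, 4 and 5 was left out, with values between 0.51 and 0.63 and adjusted p up to 0.0866 (edgeR).

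Tsc22d3 changed by -0.62 under knockdown (SE 0.14, adjusted p = 0.00696, edgeR), with no overlap between shRNA and Vec mice, and this call was kept in all 17 alternatives. These 2 targets of the same receptor moved in opposite directions. The groups did not overlap for 2 of the 10 genes, against 8.96% of all genes. Dusp1, a phosphatase that switches off MAP kinases, gave 13.9, 41.3, 26.3, 41.9 and 37.2 CPM in Vec and 31.4, 31.6, 92.4, 81.8 and 97.1 CPM in shRNA. Of the shRNA livers, 2 lay within the Vec range and 3 lay above it. The log2 fold change of 1.06 (SE 0.37, adjusted p = 0.0634, edgeR) did not pass, but did without Vec replicate 4 (1.18, adjusted p = 0.0475), shRNA replicate 1 (1.24, adjusted p = 0.0369) or shRNA replicate 2 (1.24, adjusted p = 0.0360). Exons of Dusp1 overlap those of Ergic1 on the other strand.

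The fourth comparison asked what knockdown did under BBR. Mt1 rose, 1 of the 10 genes, where 8.13% of all genes were called. Mt1 gave 622, 883, 572, 353 and 702 CPM in shRNA+BBR, of which only replicate 4 lay within the Vec+BBR range. It changed by 0.99 (SE 0.27, adjusted p = 0.0257, edgeR), and the call was lost when any 1 of Vec+BBR replicates 2, 3 and 4 or shRNA+BBR replicates 2 and 5 was left out, with adjusted p between 0.0537 and 0.0778 (edgeR). Mt2 gave 333, 411, 296, 206 and 458 CPM in shRNA+BBR and differed by 0.84 (SE 0.28, adjusted p = 0.0692, edgeR), and passed without Vec+BBR replicate 1 (1.09, adjusted p = 0.0230) or shRNA+BBR replicate 4 (0.97, adjusted p = 0.0379).

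Tat gave 1010, 999.8, 1034, 1100 and 2306 CPM in shRNA+BBR, each above every Vec+BBR mouse. Such groups without overlap were seen for 1 of the 10 genes, and for 8.475% of all genes. The difference of Tat of 0.80 (SE 0.26, adjusted p = 0.0600, edgeR) did not pass. The first 4 shRNA+BBR mice were close together and replicate 5 stood far above them. Without replicate 5 the difference was 0.48 (adjusted p = 0.198, edgeR). Sgk1, a kinase that raises sodium transport, gave 16.2, 18.5, 11.2, 16.8 and 17.3 CPM in Vec+BBR and 21.8, 18.2, 24.2, 26.8 and 23.4 CPM in shRNA+BBR, a difference of 0.51 (SE 0.17, adjusted p = 0.0671, edgeR). DESeq2 and a fit of these 2 groups alone each called 3 of the 10 genes, Mt1, Tat and Sgk1.

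Ordered by group mean, Tat, Mt1, Mt2 and Fkbp5 were lowest in Vec+BBR, and Tsc22d3 was lowest in shRNA. Of 30 pairs of neighbouring groups in these orders, 2 differed beyond their spread: shRNA stood above shRNA+BBR for Fkbp5 and shRNA+BBR above Vec+BBR for Mt1, calls that were lost without the single mice named above, and neither passed without shRNA+BBR replicate 2. The receptor gene Nr3c1 ran from 23.1 to 35.7 CPM over all 20 mice, with means of 26.8 ± 3.02 (SD, n = 5) CPM in Vec, 30.5 ± 2.45 in Vec+BBR, 30.6 ± 2.64 in shRNA and 30.3 ± 4.68 in shRNA+BBR, and no pair of neighbours differed. Klf9, a zinc finger repressor induced early by the hormone, had means between 23.9 CPM in Vec and 28.5 CPM in shRNA. Zbtb16, a transcription factor (PLZF) that is among the most inducible targets in many tissues, varied more among mice of a group than between groups, from 2.18 to 17.6 CPM within Vec+BBR alone.

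Some mice were extreme in their group for many of the 10 genes. The largest such counts were those of Vec replicate 4, highest in its group for 8 of the 10, and shRNA replicate 1, lowest in its group for 8. How often these mice were extreme over all genes was not counted. After group means were removed, Mt1 and Mt2 varied together over the 20 mice (Pearson r = 0.935, Spearman rho = 0.959, permutation p = 1e-05 for each, the smallest that 100000 permutations within groups can give, adjusted p = 0.00045 over 45 pairs). Without the 2 mice farthest from the median of Mt1, r was 0.912. Klf9 and Tat also varied together (r = 0.735, permutation p = 0.00018, adjusted p = 0.00405, and rho = 0.716, permutation p = 0.00044, adjusted p = 0.0099), with r = 0.686 without the 2 farthest mice. Without shRNA+BBR replicate 5 alone, r was 0.68 with an adjusted p of 0.106. Fkbp5 and Zbtb16 had r = 0.735 and rho = 0.641 (permutation p = 0.0137 and 0.0142, adjusted p = 0.205 and 0.212), and no other pair passed the adjustment, while 6 of the 45 had an unadjusted p under 0.05.

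**Figure D3:**
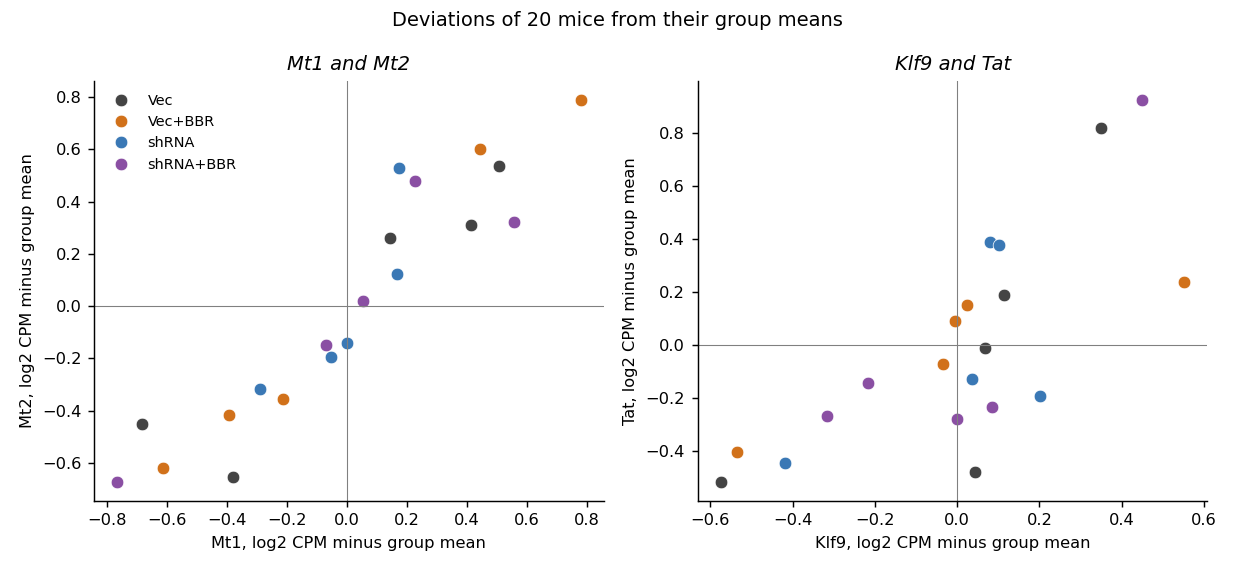
Each point is 1 of 20 mice, placed by its log2 CPM minus the mean of its group for Mt1 against Mt2 and for Klf9 against Tat, coloured by group. Points lie along a rising line in both panels, more tightly for the metallothioneins (r = 0.935) than for Klf9 and Tat (r = 0.735).

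A list of 36 other genes that glucocorticoids induce in liver or elsewhere was read beside the 10. This list, like the 10 genes and the lists below, was chosen with earlier results of these data known. Its shares describe these data and are not an independent test. With BBR in Vec mice 13 of the 36 fell and none rose, 36.1% against 15.5% of all genes, and the median log2 fold change was -0.36 against -0.005. The leading ones by p were enzymes of amino acid and nitrogen metabolism. Ass1, argininosuccinate synthase of the urea cycle, fell by 1.08 on the log2 scale (adjusted p = 0.0012, edgeR). Agxt, an aminotransferase of glyoxylate and serine, fell by 1.48 (adjusted p = 0.00141, edgeR), and Cps1, the entry enzyme of the urea cycle, fell by 1.10 (adjusted p = 0.00294, edgeR). Gpt, alanine aminotransferase, fell by 0.48 (adjusted p = 0.00515, edgeR). Chosen after their values were seen, the gluconeogenic genes Pck1 (-0.65, adjusted p = 0.0145, edgeR) and G6pc (-0.77, adjusted p = 0.0234, edgeR) were among the 13.

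In shRNA mice BBR moved 5 of the 36 (13.9%, against 15.7% of all genes). Gpt (-0.44), Cps1 (-0.87), the clock gene Per1 (-0.57) and Agxt (-0.82) fell, and Anxa1 (0.92), which encodes annexin A1, rose. The median was -0.15. Under the interaction none of the 36 passed, with 9 at an unadjusted p under 0.05 (against 2281 of all 12342 genes), and DESeq2 called 1. The count of 5 became 3 when shRNA replicate 1, 4 or 5 or shRNA+BBR replicate 4 was left out, 1 without shRNA+BBR replicate 3 and 9 without shRNA+BBR replicate 5.

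Knockdown moved 6 of the 36 under vehicle (16.7%, against 13.2% of all genes). The cell cycle inhibitor Cdkn1a (1.30), the glycogen-targeting subunit Ppp1r3c (0.85) and the mTORC1 inhibitor Ddit4 (0.73) rose, while Angptl4 (-0.53), an inhibitor of lipoprotein lipase and also a PPAR target, the repressor Bcl6 (-1.59) and the NF-κB inhibitor Nfkbia (-0.34) fell. Under BBR 4 rose and none fell (11.1%, against 8.13% of all genes), namely Ddit4 (0.91), the serine dehydratase Sds (1.01), Ass1 (0.71) and Ppp1r3c (0.89). The count of 6 became 3 without Vec replicate 1, shRNA replicate 3 or shRNA replicate 4. The count of 4 became 1 without Vec+BBR replicate 2 or 4 or shRNA+BBR replicate 5, and 2 without Vec+BBR replicate 3 or shRNA+BBR replicate 2.

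**Figure D4:**
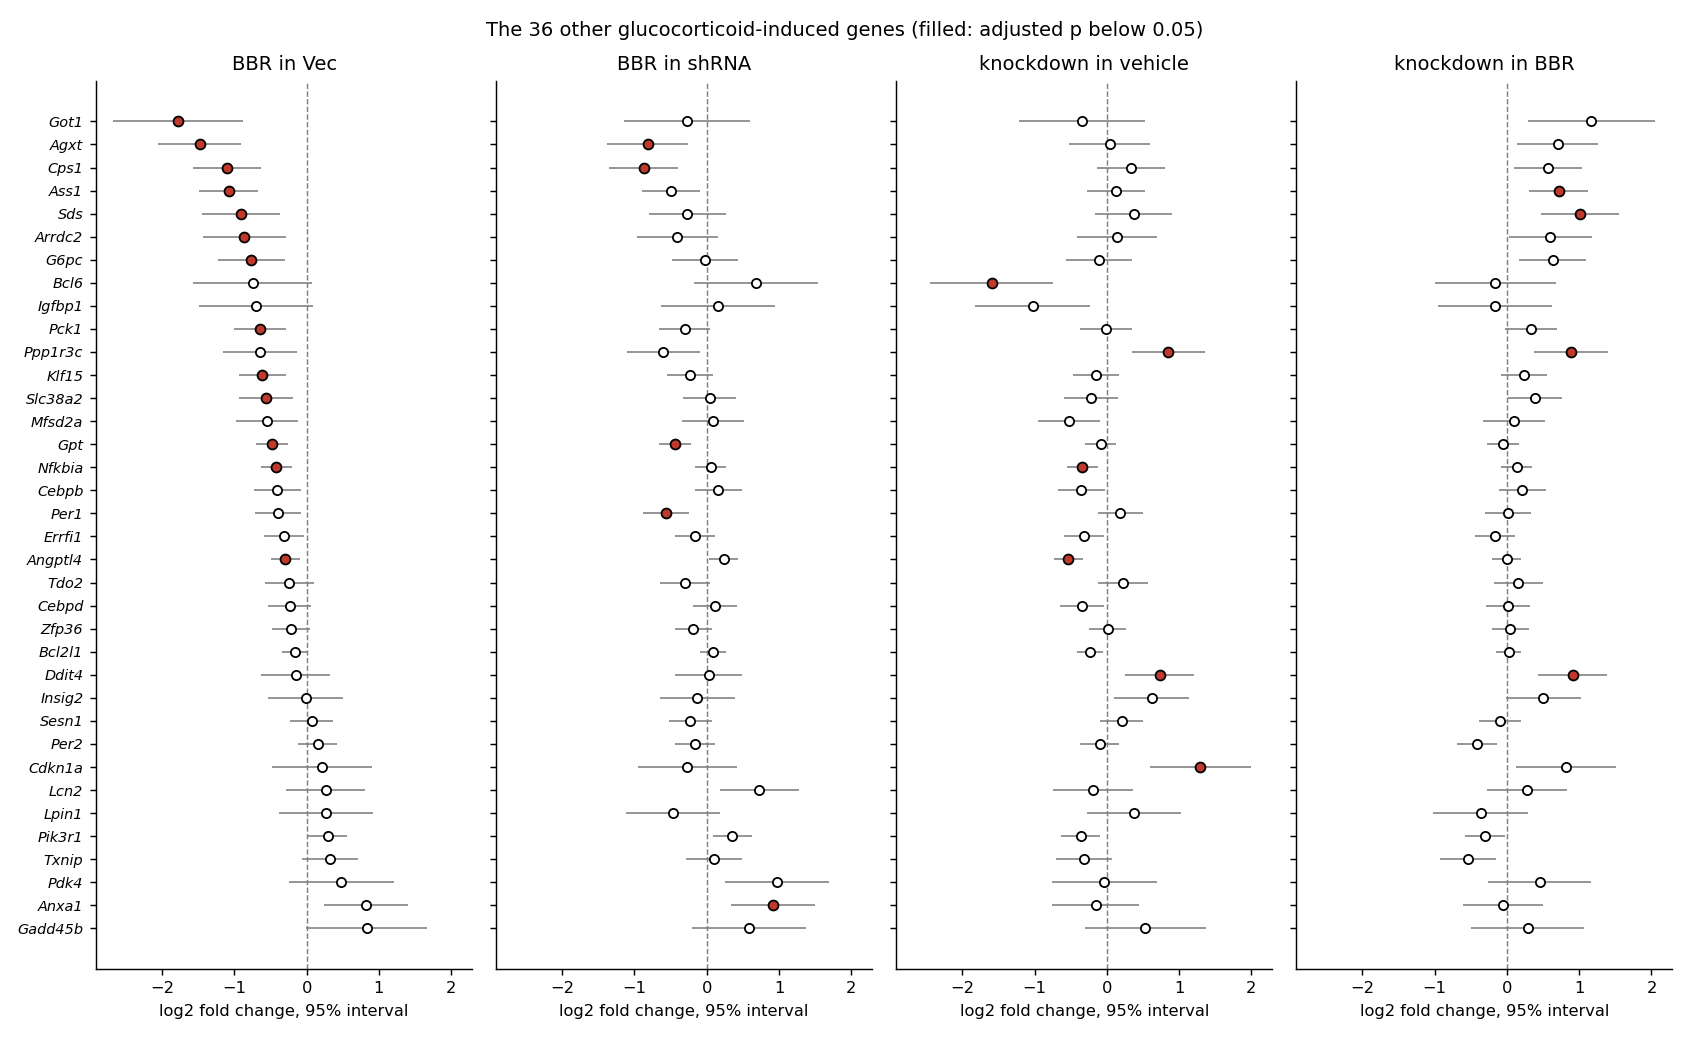
The log2 fold change of each of 36 other glucocorticoid-induced genes is plotted with its 95% interval in the same 4 comparisons, in the order of the change with BBR in Vec mice, and filled points passed an adjusted p of 0.05. With BBR in Vec mice 13 genes are filled, all left of 0, against 5 with BBR in shRNA mice.

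Of 21 tested genes that supply hormone to the receptor or assist it, BBR in Vec mice lowered 4 and raised 1 (23.8%, against 15.5% of all genes). Hsd11b1, the enzyme that regenerates corticosterone in hepatocytes, went from 1187 ± 257 to 583 ± 208 CPM (SD, n = 5, log2 fold change -1.02, SE 0.19, adjusted p = 0.00142, edgeR). Serpina6, the plasma carrier of corticosterone, fell by 0.71, and the steroid reductases Akr1d1 and Srd5a2, which inactivate hormone, fell by 0.46 and 0.82. The chaperone Hsp90aa1 rose by 0.69. Under BBR, Hsd11b1 rose with knockdown by 0.63 (adjusted p = 0.0435, edgeR). H6pd, which supplies the cofactor of that enzyme, fell with knockdown by 0.50 under vehicle and by 0.45 under BBR.

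In shRNA mice BBR moved 7 of the 21 (33.3%, against 15.7% of all genes). It raised 3, the chaperones Hsp90aa1 (0.87), Hspa8 (0.63) and Dnaja1 (0.38), and lowered 4, the mineralocorticoid receptor Nr3c2 (-0.64), the coactivators Ncoa2 (-0.64) and Ncoa1 (-0.36), and Srd5a2 (-0.83). Knockdown under vehicle raised Ncoa1 (0.46) and lowered the chaperone genes Stip1 (-0.25) and Hsp90ab1 (-0.27), beside H6pd, 4 of the 21 (19.1%, against 13.2% of all genes). Knockdown under BBR moved 5 of the 21 (23.8%, against 8.13% of all genes), with Dnaja1 (0.39) higher, and Nr3c2 (-0.76) and Hsp90ab1 (-0.32) lower, beside Hsd11b1 and H6pd. None of the 21 passed the interaction, with 7 at an unadjusted p under 0.05 (against 2281 of all 12342 genes).

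Of 9 tested inflammatory genes that the receptor is known to restrain, none passed with BBR in Vec mice, under knockdown with vehicle or under knockdown with BBR. An unadjusted p under 0.05 was found for 2, 1 and 0 of the 9, against 3730, 3510 and 3046 of all 12342 genes. Relb (0.93) and Il1b (1.28) rose with BBR in shRNA mice, to means of 1.63 and 1.11 CPM (22.2% of the 9, against 15.7% of all genes). In the same comparison the neutrophil marker S100a8 (2.14), the lymphocyte marker Nkg7 (1.79) and the macrophage marker Cd68 (0.88) rose. S100a8 and Nkg7 were low, at average log2 CPM of -0.24 and -0.28, and Cd68 was the only 1 of 7 macrophage markers called. The part of these markers in the rise of Relb and Il1b was not tested. Of 10 acute phase genes, Fgb fell with BBR in Vec mice (-0.48), 1 of the 10 against 15.5% of all genes. In shRNA mice Hp (0.71), Orm2 (0.89), Saa2 (1.38) and Saa1 (1.16) rose with BBR, 4 of the 10 against 15.7%. Knockdown lowered Orm2 (-1.57) and Hp (-1.07) under vehicle, 2 of the 10 against 13.2% of all genes. Under BBR knockdown lowered Hp (-0.64), 1 of the 10 against 8.13%.

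Other regulators of these genes were read from lists of their own. Of 9 genes that respond to metals beside the metallothioneins, the zinc exporter Slc30a1 fell with BBR in Vec mice (-0.69, adjusted p = 0.00448, edgeR) and in shRNA mice (-0.56, adjusted p = 0.0186, edgeR), while Gclc (0.65), the rate-limiting enzyme of glutathione synthesis, and the zinc importer Slc39a4 (0.39) rose in Vec mice. Slc30a10 rose with knockdown under vehicle (0.71), and Gclc fell with knockdown under BBR (-0.66). Called were 3 of the 9 with BBR in Vec mice (33.3%, against 15.5% of all genes) and 1 with BBR in shRNA mice (11.1%, against 15.7%). With knockdown 1 was called under vehicle (11.1%, against 13.2%) and 1 under BBR (11.1%, against 8.13%). Of 15 immediate-early genes, Klf6 (1.03) and Jun (0.85) rose with BBR in Vec mice, 2 of the 15 against 15.5% of all genes. In shRNA mice Fos (1.61), Jund (0.36) and Egr1 (1.05) rose with BBR, 3 of the 15 against 15.7%. Dusp1 was -0.38 there (95% interval -1.14 to 0.39). None of the 15 was called with knockdown under vehicle or under BBR (against 13.2% and 8.13% of all genes).

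Many glucocorticoid targets are known to follow the hour of the day, so clock genes were read too. With knockdown under vehicle 2 of 8 day-phase and 2 of 4 night-phase genes were called (against 13.2% of all genes), and under BBR 2 of 8 and 3 of 4 (against 8.13% of all genes). Under vehicle, Dbp (-1.34) and Nr1d1 (-1.07), which peak by day, fell, and Arntl (1.10) and Cry1 (0.52), which peak by night, rose. Under BBR, Nr1d1 (-1.67) and Dbp (-1.35) fell, and Cry1 (1.09), Arntl (1.57) and Nfil3 (0.64) rose. With BBR in Vec mice 1 of 8 and 1 of 4 were called (against 15.5% of all genes), Per3 (-0.48) and Cry1 (-0.57). With BBR in shRNA mice 2 of 8 and 1 of 4 were called (against 15.7% of all genes), Tef (-0.46), Per3 (-0.54) and Clock (0.49). The part of these shifts in the changes of Fkbp5 and Tsc22d3 with knockdown was not tested.

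Markers of cell types also moved beside these results. Summed hepatocyte markers ran from 120400 to 150900 CPM in Vec and from 88810 to 123700 CPM in Vec+BBR. Of the 6, 2 fell (33.3%, against 15.5% of all genes), Cps1 (-1.10), which is also on the list of 36, and Cyp2e1 (-0.80). Summed cholangiocyte markers ran from 24.0 to 45.3 CPM in Vec and from 50.3 to 96.6 CPM in Vec+BBR. Most of this sum was Spp1 (average log2 CPM 5.42), which rose by 1.00. Sox9, Krt19, Krt7 and Epcam, at average log2 CPM from -0.41 to 0.73, did not pass (adjusted p 0.142 to 0.797, edgeR). Summed stellate cell markers ran from 128.5 to 226 CPM in Vec and from 226.2 to 258 CPM in Vec+BBR, with Col1a1 (1.18) higher. Endothelial markers ran from 65.3 to 90.0 CPM in Vec and from 84.8 to 111 CPM in Vec+BBR, with Pecam1 (0.53) and Oit3 (0.66) higher. Among the immune markers Cd68 (0.64) rose, while Timd4 (-0.78), Nkg7 (-2.21) and Cd3g (-2.21) fell with BBR in Vec mice. Called were 1 of 5 cholangiocyte, 1 of 5 stellate cell and 2 of 5 endothelial markers (against 15.5% of all genes). Of the macrophage and lymphocyte markers tested, 2 of 7 and 2 of 3 were called.

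With BBR in shRNA mice, Spp1 (0.92), Col1a1 (1.70) and the stellate cell gene Lrat (0.75) rose beside S100a8, Nkg7 and Cd68, given above. Cps1 (-0.87) and the endothelial genes Kdr (-0.42) and Stab2 (-0.51) fell. Called were 2 of 5 stellate cell, 2 of 5 endothelial, 1 of 5 cholangiocyte and 1 of 6 hepatocyte markers (against 15.7% of all genes). Of the macrophage, neutrophil and lymphocyte markers tested, 1 of 7, 1 of 2 and 1 of 3 were called. The stellate cell marker Reln was lower without passing (-0.46, adjusted p = 0.0601, edgeR). Summed neutrophil markers ran from 0.685 to 2.40 CPM in shRNA and from 0.929 to 8.62 CPM in shRNA+BBR, and lymphocyte markers from 0.640 to 2.06 CPM and from 1.42 to 4.79 CPM. With knockdown under vehicle, Kdr (0.55), Stab2 (0.64) and Clec4g (0.47) rose, the summed endothelial markers running from 96.0 to 130 CPM in shRNA. Cyp2e1 (-1.14), Cd68 (-0.72), Nkg7 (-1.83) and Col1a1 (-1.12) fell. Called were 3 of 5 endothelial, 1 of 6 hepatocyte and 1 of 7 macrophage markers (against 13.2% of all genes). Of the lymphocyte and stellate cell markers tested, 1 of 3 and 1 of 5 were called. The 5 stellate cell markers gave 3 negative and 2 positive values, among the latter Reln (0.35) and Dcn (0.12). Their summed levels had medians of 207 CPM in Vec and 198 CPM in shRNA. With knockdown under BBR, Nkg7 (2.17) was the called marker, 1 of 3 tested for lymphocytes (33.3%, against 8.13% of all genes). Its level was low, at an average log2 CPM of -0.28. The defining adipocyte markers Adipoq, Plin1 and Lep summed to at most 1.14 CPM in any liver. The part of these markers in the changes of the 10 genes was not tested.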

How the data were processed

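Polyadenylated RNA of 20 livers was sequenced on an Illumina platform, and groups were taken from the labels. The authors deposited expected counts and FPKM per gene, on mm10 per the labels, and the aligner, the counter and the use of strand are not given in the sources used here. Expected counts were deposited before normalization, and 91.9% to 93.3% of them per library were whole numbers. FPKM were scaled by the authors for length and depth and were used here only for levels between genes.

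Counts were rounded, filtered with filterByExpr (minimum count 10, minimum total 15) and scaled by TMM (factors 0.873 to 1.14). One model with 4 group means was fitted by edgeR 4.0.16 in R 4.3.3 (quasi-likelihood test, prior degrees of freedom 4.88), with a threshold of 0.05. SEs were derived from the F statistics, and 95% intervals used the residual plus prior degrees of freedom. The fit was tested on simulated data. P-values measure the spread between mice. Totals of 17432904 to 25024099 counts per library allow a gene with 0 counts up to 3 counts, 0.120 to 0.172 CPM, for counting error only.

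The 10 members and all lists were chosen with earlier results of these data known. All members are named, and of each list the called genes, at most 4 per direction and comparison by smallest p. Alternatives were RLE and upper-quartile scaling, 2 other filters, DESeq2 1.42.0, a replicate block, fits of 2 groups, and leaving out each mouse. Positions are from GENCODE M21 and promoter windows from RefSeq GRCm38.p6, where 8 of the 10 members matched. None of the 40 pairs of libraries within a group were duplicates, and pairs between groups were not compared. Replicate numbers were not treated as pairs of mice. Correlations of deviations passed 0.1 for 1 of 5 numbers between Vec and Vec+BBR and 3 of 5 between shRNA and shRNA+BBR. They reached at most -0.001 between Vec and shRNA and 0.075 between Vec+BBR and shRNA+BBR. Mice with unlike numbers were not correlated for reference, so this check cannot exclude pairing.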

Additional observations from a re-analysis of the deposited data

Results flagged for a closer look

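Of 40 sets of 5 mice (10 genes in 4 groups), 2 held a mouse that stood apart from its group by Dixon's test, and chance flags about 1 in 20 such sets. Nr3c1 was 32.2 CPM in Vec replicate 4, with a gap to the next mouse of 0.824 of the range of its group. Tat was 2306 CPM in shRNA+BBR replicate 5, with a gap of 0.924 of the range, and the difference of Tat between shRNA+BBR and Vec+BBR without that mouse stands in the report.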

How the results depend on the processing

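With BBR in Vec mice, 4 members were called in all 17 alternatives, and 9 to 16 of the other glucocorticoid-induced genes were. Leaving out each mouse gave 0 to 1 members with BBR in shRNA mice, 1 to 3 with knockdown under vehicle, 0 to 2 with knockdown under BBR and 0 to 1 for the interaction, with DESeq2 and fits of 2 groups giving 3 with knockdown under BBR and DESeq2 1 for the interaction. For the other glucocorticoid-induced genes the ranges were 1 to 9, 3 to 7 and 1 to 6 in the same order. Fits of 2 groups gave 8 with BBR in shRNA mice and 8 with knockdown under BBR, where DESeq2 gave 7, and DESeq2 gave 1 for the interaction. Over all genes, leaving out a mouse gave 1237 to 2395 with BBR in Vec mice, 661 to 2527 with BBR in shRNA mice, 1015 to 2284 with knockdown under vehicle, 538 to 1129 with knockdown under BBR and 5 to 122 for the interaction. Fits of 2 groups gave 1178 with BBR in Vec mice, and the interaction gave 35 genes with upper-quartile scaling and 330 with DESeq2. Neighbouring groups that differed numbered 0 to 3 when a mouse was left out. The cause of these shifts was not tested.

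Of 940 log2 fold changes of the members under alternatives, 873 kept their direction and side of the threshold, 19 lost a call, 16 gained one and 32 changed sign, all of the last in changes that were not called. Nr3c1 gave 0.02 with BBR in shRNA mice and 0.03 with knockdown under BBR after upper-quartile scaling, and 0.01 in each with a minimum of 10 counts in every library and, for the latter, in a fit of 2 groups. Leaving out a mouse, the changes that crossed 0 ran, with BBR in Vec mice, from -0.05 to 0.19 for Sgk1, -0.29 to 0.24 for Dusp1, -0.15 to 0.13 for Klf9 and -0.05 to 0.42 for Zbtb16. They ran from -0.07 to 0.07 for Nr3c1 and -0.28 to 0.02 for Mt1 with BBR in shRNA mice, from -0.34 to 0.04 for Tat and -0.13 to 0.15 for Mt1 with knockdown under vehicle, and from -0.06 to 0.08 for Nr3c1, -0.09 to 0.20 for Klf9 and -0.40 to 0.05 for Zbtb16 with knockdown under BBR.

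The labels' replicate numbers share only a number between groups. With that number as a replicate block, members called were 4, 1, 3, 1 and 0 in the order of the comparisons of the report with the interaction last, Dusp1 being added with knockdown under vehicle (1.05, adjusted p = 0.0203, edgeR), and 1747, 1819, 1495, 940 and 21 of all genes were called.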
